A study of Mus musculus with 12 samples.

Results

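Pancreas RNA was compared between Old and Young male C57BL/6J mice in the earlier part of the day, in the libraries labelled 4, 8 and 12 h of zeitgeber time. These are 6 of the 12 libraries of the series, 3 Old and 3 Young, defined by their age and time labels. Old mice were killed at 25 months of age and Young mice at 5 months. All had been housed singly for 4 weeks in 12 h of light and 12 h of darkness, with chow and water freely available. Zeitgeber time counts hours from lights on, so 12 h is the boundary at which the light goes off, and the protocol states that tissue was taken in the dark. The labels give 1 library for each age and time and do not say whether each came from its own mouse. P-values therefore measure the spread between these libraries, and the 3 times within an age serve as its replicates. The remaining 6 libraries, from 16, 20 and 24 h, were used to set the genes and gene lists found here beside separate samples. They also entered a test of whether the age difference differed between the times, and an alternative setting with a pooled spread. RNA came from whole pancreas, so fewer cells of a type and less RNA per cell cannot be told apart in any value below.

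Most pancreatic RNA comes from acinar cells, which make and secrete digestive enzymes. Acinar cells under stress or injury are known to turn on the regenerating (Reg) family, small secreted C-type lectins first found in regenerating islets and in inflamed pancreas. Reg2 and Reg1 are made by acinar cells and islets, Reg3b was first described as a pancreatitis-associated protein, and Reg3g binds bacteria in the mouse gut. Cytokines of the interleukin-6 type act on Reg3 genes through the transcription factor STAT3.

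Without the library labelled Young 4 h, 12 genes differed between Old and Young, and the largest rises were in the Reg genes Reg3a and Reg2. Reg2 was 31.4-fold higher in Old, and Reg3b also rose. Itih4, an acute-phase protein of plasma, and 1810007D17Rik, a long intergenic RNA beside the pancreatic lipase gene, rose by similar amounts, 6.68-fold and 6.69-fold. Carboxypeptidase E (Cpe), heat shock protein Hsph1 and the matrix protein Sparc were lower in Old. Reg2, Reg3a, Reg3b, Itih4 and 1810007D17Rik also passed whichever single library of the 5 was left out; where that was a Young library, 1 Young library remained and was assumed to vary like the Old ones. Of 14 distinct alternative settings, 1810007D17Rik passed under 14, Reg2 under 13, Reg3a and Itih4 under 12 and Reg3b under 11. Their lost calls came with DESeq2 (Reg3b, Itih4), limma-voom (Reg3a), a stricter count filter (Reg3b) and a spread pooled with the 16 to 24 h libraries (Reg2, Reg3a, Reg3b and Itih4). With all 6 libraries only Reg2, Reg3a and 1810007D17Rik passed. In the 5 libraries, Reg3a, Itih4 and 1810007D17Rik were tested only because of their counts in Old.

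The genome sequence just before the start of 4 of these genes is given so that the co-rising genes can be compared at their promoters; the Reg3b window overlaps an annotated exon and is not printed. Each run is the 250 bases upstream of the RefSeq start on build GRCm38.p6, written 5′ to 3′ in the direction of transcription. Capitals mark matches, on either strand, to TTCNNNGAA, the core of a STAT site, or to TATAAA, the TATA box.
Reg2, chr6:78404905-78405154, plus strand: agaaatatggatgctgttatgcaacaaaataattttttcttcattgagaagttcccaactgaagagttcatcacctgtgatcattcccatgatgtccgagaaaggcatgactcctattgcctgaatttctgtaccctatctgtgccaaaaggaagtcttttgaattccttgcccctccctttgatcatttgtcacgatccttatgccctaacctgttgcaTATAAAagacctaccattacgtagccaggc
Reg3a, chr6:78380459-78380708, plus strand: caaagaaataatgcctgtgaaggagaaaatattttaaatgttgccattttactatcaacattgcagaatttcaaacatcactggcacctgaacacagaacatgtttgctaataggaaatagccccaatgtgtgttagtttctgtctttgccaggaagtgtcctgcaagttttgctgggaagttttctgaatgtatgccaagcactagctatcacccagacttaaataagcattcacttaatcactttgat
Itih4, chr14:30886226-30886475, plus strand: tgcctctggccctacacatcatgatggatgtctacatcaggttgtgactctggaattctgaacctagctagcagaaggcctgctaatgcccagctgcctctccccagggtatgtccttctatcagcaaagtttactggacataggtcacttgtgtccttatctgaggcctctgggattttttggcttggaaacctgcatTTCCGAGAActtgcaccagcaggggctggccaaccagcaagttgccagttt
1810007D17Rik, chr19:58606079-58606328, plus strand: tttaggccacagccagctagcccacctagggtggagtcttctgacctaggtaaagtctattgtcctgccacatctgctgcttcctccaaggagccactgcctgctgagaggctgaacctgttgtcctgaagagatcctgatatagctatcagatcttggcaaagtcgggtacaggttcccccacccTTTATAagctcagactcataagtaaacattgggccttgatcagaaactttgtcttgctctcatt
Reg2 held TATAAA at 30 bases before its start, and 1810007D17Rik held the same motif on the opposite strand, 64 bases before. Itih4 held TTCCGAGAA, 51 bases before its start, and no match to either motif lay in the Reg3a window. Reg3b held TTCTTGGAA, a match to TTCNNNGAA, and TATAAA in the same window. Reg genes that did not pass held such matches too. Reg1 held TATAAA at 30 bases before its start, as Reg2 did. Reg3d held TTCCCAGAA, a match to TTCNNNGAA, and Reg3g held 2 matches to TATAAA. Of 32817 RefSeq promoter windows searched in the same way, 12.4% held TATAAA and 7.01% held TTCNNNGAA. A match describes letters only. No exon of the GENCODE annotation overlapped the 4 printed windows. The RefSeq start of Reg2 lies downstream of the start of its GENCODE gene, at 78395623, so the Reg2 window falls inside that annotated gene.

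The 6 libraries held between 1175563 and 2918805 counts in 40840 genes, and the highest total was that of Young 4 h. That library held brain transcripts. Snap25, a synaptic protein of neurons, stood at 365 CPM there and at no more than 2.35 CPM in the other 5. CPM are the counts of a gene relative to the library total. Slc1a2, the glutamate transporter of astrocytes, reached 519 CPM, where the other 5 held no more than 4.27 CPM. The digestive enzyme genes took 18.9% of its counts, against 32.9 to 45.9% in the other 5. Log CPM of that library correlated at 0.790 to 0.796 with the rest, which correlated among themselves at 0.925 to 0.937. The age test was therefore run with it (3 against 3) and without it (3 against 2), and some values of single genes and lists below are given without it only. In the second form Old has a 4 h library and Young has none. No 2 of the 6 libraries were copies of each other at the level of counting noise.

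Adjusted p-values below are those of the quasi-likelihood test in edgeR, after Benjamini and Hochberg, and a gene passed under 0.05. Without Young 4 h, 12 of 6341 genes tested (0.189%) passed. Of these, 9 were higher in Old (0.142% of genes tested) and 3 lower (0.0473%). At an unadjusted p under 0.05 there were 309 genes (4.87%). All 12 had no overlap between the 3 Old and the 2 Young libraries, as did 18.9% of all genes tested. With Young 4 h included, 3 of 6279 genes (0.0478%) passed, all higher in Old, and 346 (5.51%) had an unadjusted p under 0.05. The biological coefficient of variation, the spread between libraries of an age, was 0.384 with Young 4 h and 0.194 without it. The count was 7 when Old 12 h was left out. It was 73 without Young 8 h in the fit and 29 lacking Young 12 h, where 3 Old libraries met a single Young one and the spread came from the Old libraries. Reg3a and Kcnma1 reached the count filter through Old libraries only and Cpe through Young ones only, so the direction of these 3 was fixed by the filter. The filter asked for 2 of the 5 libraries over 7.84 CPM. Itih4 and 1810007D17Rik had 3 Old libraries and 1 Young library over it, so they too were tested only because of their counts in Old.

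**Figure D1:**
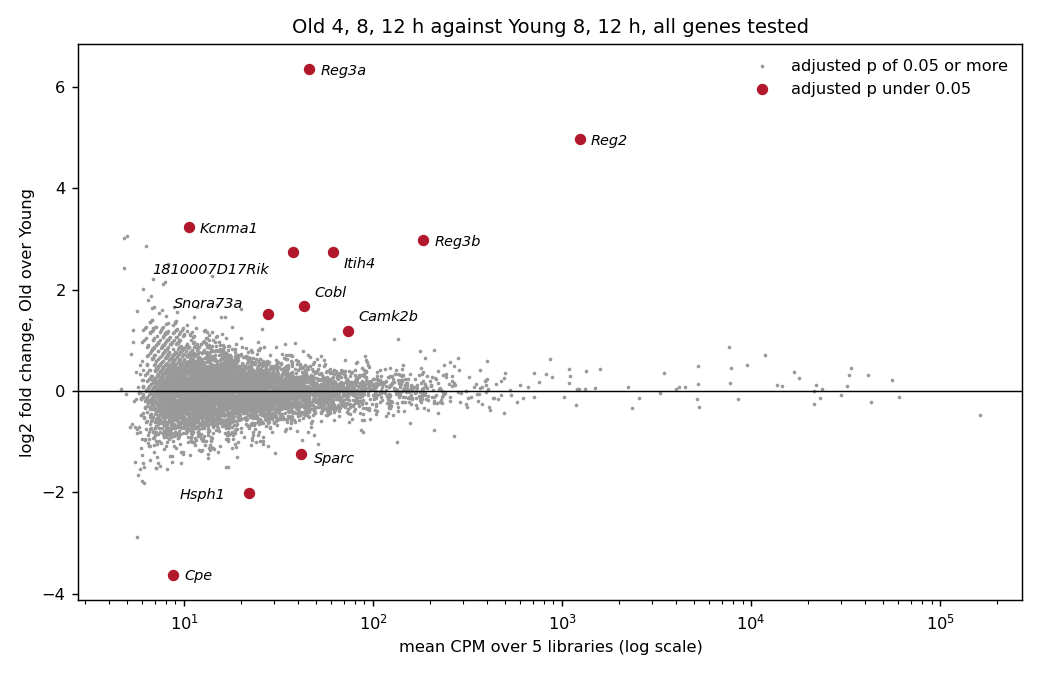
Each point is 1 of the 6341 genes tested in the 5 libraries, with its mean CPM on a log scale and its log2 fold change of Old over Young. The 12 genes past the adjusted p of 0.05 are red and named; Reg3a and Reg2 lie highest, at 6.35 and 4.97, and Cpe lies lowest, at -3.63.

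The Reg genes lie together on chromosome 6 of build GRCm38, where Reg1, Reg2, Reg3a, Reg3b, Reg3d and Reg3g span 98.2 kb from 78370657 to 78468872. Their annotated transcripts share no stretch of 50 bases. Reg2 (78395623 to 78408106, plus strand) stood at 63.9 CPM in Young 8 h and 64.6 CPM in Young 12 h. In Old it stood at 3343 CPM at 4 h, 1683 CPM at 8 h and 1066 CPM at 12 h. Young 4 h lay with the other Young libraries, at 42.5 CPM, so every Old library was far above every Young one; 9.48% of genes tested in the 6 libraries had no overlap between the ages. The mean was 2031 ± 1178 CPM in Old (SD, n = 3) and 64.3 ± 0.51 CPM in the 2 Young libraries. The log2 fold change was 4.97 ± 0.38 (SE; edgeR adjusted p = 3.27e-11) in the 5 libraries. It was 5.31 ± 0.62 (edgeR adjusted p = 0.0269) with Young 4 h.

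Reg3a (78380709 to 78383827) was nearly silent in Young. It had 0 counts in Young 8 h and 2 counts in Young 12 h, or 1.70 CPM, and it stood at 3.08 CPM in Young 4 h. Old levels were 123, 76.1 and 29.4 CPM at 4, 8 and 12 h, above all Young libraries. The 3 Old libraries together held 308 counts against 2 in the Young pair, a ratio of CPM of 92.2 with an exact 95% interval of 25.3 to 765 that covers counting error only. Reg3a passed in both fits, with an edgeR adjusted p of 1.60e-07 without Young 4 h and 0.0269 with it, where its log2 fold change was 5.69 ± 0.73.

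Reg3b (78370657 to 78373466) stood at 59.0 CPM in Young 8 h and 11.1 CPM in Young 12 h. Old levels were 469, 312 and 70.3 CPM, the lowest of them just above the higher Young library. The log2 fold change was 2.98 ± 0.49 (edgeR adjusted p = 0.000983) without Young 4 h. Young 4 h was within the Young range at 17.5 CPM, and the difference with it was 3.40 ± 0.84. In that fit it did not pass, at an edgeR adjusted p of 0.808.

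The other 3 family members did not pass. Reg3d was 241, 141 and 125 CPM in Old and 70.6 and 97.0 CPM in Young 8 and 12 h, with a log2 fold change of 1.02 ± 0.27 (edgeR adjusted p = 0.169). Reg3g, the bactericidal member in mouse gut, was close to the limit of detection, with 31 counts over the Old libraries and 2 over the Young pair, a ratio of 9.28 with an exact 95% counting interval of 2.36 to 80.1 (edgeR adjusted p = 0.679). Reg1, also called pancreatic stone protein, differed least. It stood at 2121 and 2196 CPM in Young 8 and 12 h and at 2474, 2609 and 1783 CPM in Old, with overlapping groups and a log2 fold change of 0.08 ± 0.24. With Young 4 h, the log2 fold changes of Reg3d and Reg1 were 1.31 ± 0.41 and 0.24 ± 0.39, neither passed, and Reg3g was too low to be tested. Reg4 had no counts.  Of the 6 members tested 3 passed. The median of their log2 fold changes was 3.02, or 2.11 with Reg3a and Reg3g at the lower bounds of their counting intervals, against -0.0042 over all genes tested. Reg3a and Reg3g were tested only because of their counts in Old, so their sign and this median are a description.

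**Figure D2:**
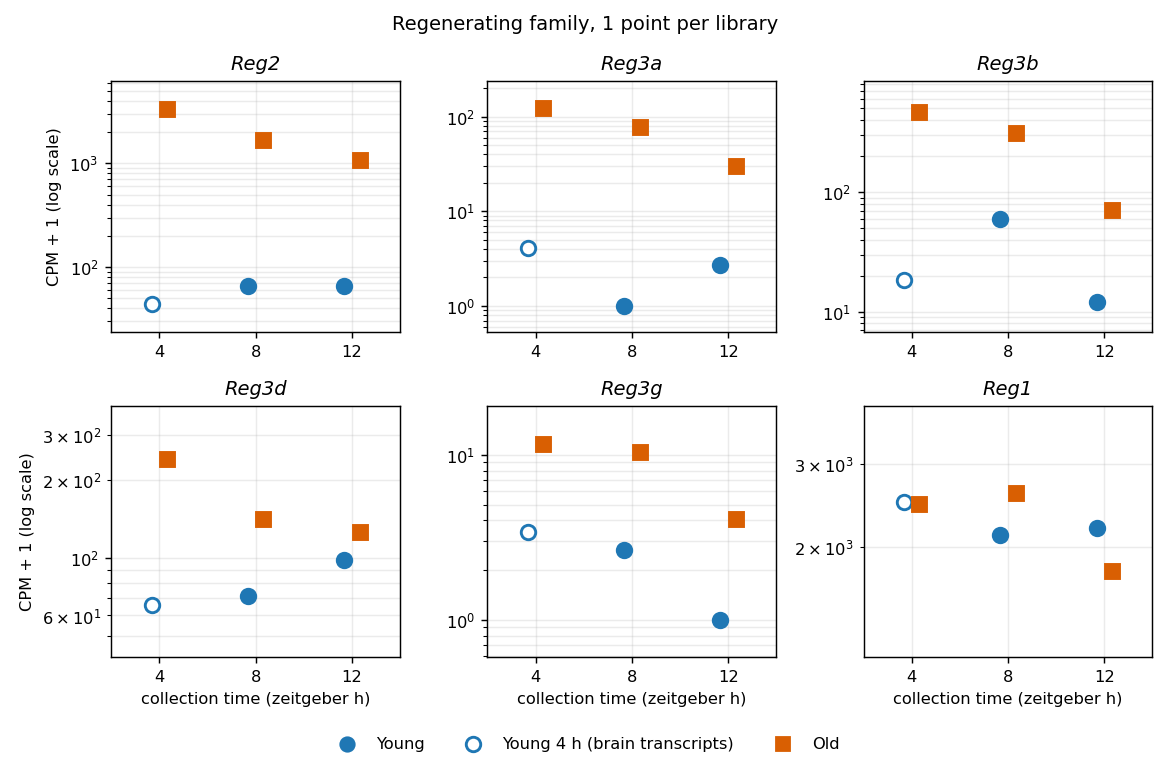
Each panel shows 1 Reg gene, with collection time in hours on the x axis and CPM + 1 on a log y axis; blue circles are Young libraries, the open circle is Young 4 h and orange squares are Old libraries. Old lay above all Young libraries in Reg2, Reg3a, Reg3b, Reg3d and Reg3g and overlapped Young in Reg1, and in the first 5 of these panels Old 4 h was the highest library.

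Itih4 (chromosome 14, 30886476 to 30902353, plus strand) encodes a heavy chain related to inter-alpha-trypsin inhibitor, best known as an acute-phase protein made in liver. It stood at 7.47 and 20.4 CPM in Young 8 and 12 h and at 142, 82.3 and 53.3 CPM in Old. The groups did not overlap, also with Young 4 h at 25.0 CPM. The log2 fold change was 2.74 ± 0.37 (edgeR adjusted p = 2.50e-05) without that library and 2.69 ± 0.47 (edgeR adjusted p = 0.290) with it. The nearest annotated genes tested on either side, Sfmbt1 and Spcs1, did not pass.

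1810007D17Rik is annotated as a long intergenic non-coding RNA (chromosome 19, 58606329 to 58629753, plus strand), 22.7 kb before the pancreatic lipase gene Pnlip. Young libraries held 9.96 CPM at 8 h and 6.81 CPM at 12 h, and Young 4 h held 11.0 CPM. Old libraries held 59.1, 47.1 and 64.9 CPM, a mean of 57.0 ± 9.11 (SD, n = 3) against 8.38 ± 2.23 in the Young pair. The log2 fold change was 2.74 ± 0.35 (edgeR adjusted p = 7.33e-06), and 2.87 ± 0.36 (edgeR adjusted p = 0.0269) with Young 4 h. Pnlip itself did not pass, with a log2 fold change of -0.11 ± 0.26.

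The other 4 genes that rose were called without Young 4 h only. Cobl encodes cordon-bleu, which nucleates actin filaments, and stood at 8.30 and 28.9 CPM in Young and 57.7, 43.9 and 75.7 CPM in Old (log2 fold change 1.68 ± 0.34, edgeR adjusted p = 0.0190). Kcnma1, the pore-forming subunit of the large-conductance calcium-activated potassium channel, had 0 counts in Young 8 h and 4 in Young 12 h, and 24, 13 and 29 counts in Old (3.23 ± 0.67, edgeR adjusted p = 0.0243). Camk2b, the beta subunit of calcium/calmodulin-dependent kinase II, stood at 39.0 and 44.2 CPM in Young and 110, 78.4 and 94.3 CPM in Old (1.18 ± 0.26, edgeR adjusted p = 0.0344). Each of these genes had no overlap in the 5 libraries. Neurons express Kcnma1 and Camk2b strongly, and Young 4 h held 92.2 CPM of the first and 233 CPM of the second, above every Old library. With it, the log2 fold changes were -0.42 ± 1.02 and 0.30 ± 0.49. In the other 5 libraries the summed central neuron markers were low throughout, at 35.7 and 57.8 CPM in Young and 50.6 to 62.7 CPM in Old. Snora73a, a small nucleolar RNA, had 11 and 20 counts in Young and 42, 49 and 58 counts in Old (1.53 ± 0.34, edgeR adjusted p = 0.0435). It lies within the same-strand genes Snhg3 and Rcc1, and its reads cannot be told apart from theirs. With Young 4 h, Cobl and Snora73a had log2 fold changes of 1.23 ± 0.47 and 1.49 ± 0.35 and did not pass (edgeR adjusted p = 0.808 for each). Without that library, Camk2b passed under 5 of 14 distinct alternative settings, Kcnma1 under 8, Snora73a under 7 and Cobl under 9.

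The 3 genes that fell were all highest in Young 4 h, the library with brain transcripts. Cpe, the carboxypeptidase that trims prohormones in endocrine granules, had 21 and 26 counts in Young 8 and 12 h (17.4 and 22.1 CPM) and 4, 2 and 0 counts in Old. Its log2 fold change was -3.63 ± 0.63 (edgeR adjusted p = 0.00159). Young 4 h held 393 CPM, and the fold change with it was -5.93 ± 1.23 (edgeR adjusted p = 0.808). Hsph1, a partner of Hsp70 chaperones, stood at 14.9 and 65.5 CPM in Young and 2.85, 11.8 and 14.7 CPM in Old. The highest Old library thus lay just under the lower Young one, with a log2 fold change of -2.02 ± 0.44 (edgeR adjusted p = 0.0344). Sparc, a collagen-binding matrix protein of stromal cells, stood at 44.0 and 84.2 CPM in Young and within 24.9 to 28.6 CPM in Old (-1.24 ± 0.28, edgeR adjusted p = 0.0435). With Young 4 h the log2 fold changes were -3.16 ± 0.83 for Hsph1 and -2.15 ± 0.54 for Sparc, and neither passed (edgeR adjusted p = 0.808 for each). Without it, Hsph1 passed under 5 of its 13 distinct alternative settings, Sparc under 4 of 14 and Cpe under 11 of 14.

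**Figure D3:**
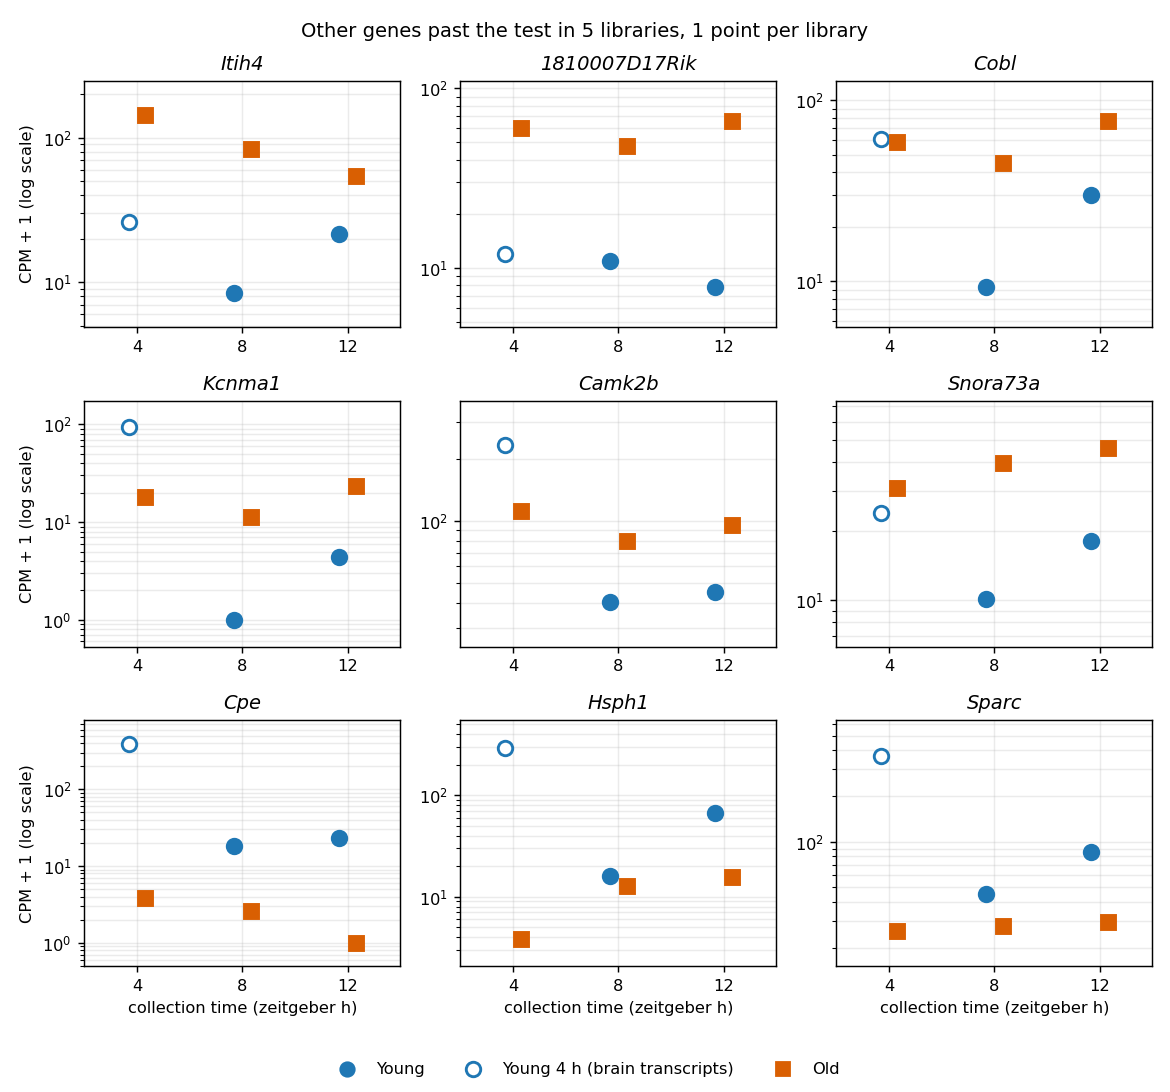
Each panel shows 1 of the 9 called genes outside the Reg family, with collection time in hours on the x axis and CPM + 1 on a log y axis; symbols are blue circles for Young, an open circle for Young 4 h and orange squares for Old. Old lay above Young 8 and 12 h in the first 6 panels and below them in the last 3, and Young 4 h was above every Old library in Kcnma1, Camk2b, Cpe, Hsph1 and Sparc.

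Because Young lacked a 4 h library in that test, the 8 and 12 h libraries were also compared alone, 2 against 2. There 11 of 6029 genes (0.182%) passed, 10 higher (0.166%) and 1 lower (0.0166%), and 9 of the 12 genes above were among them; 226 genes (3.75%) had an unadjusted p under 0.05. Camk2b, Hsph1 and Sparc did not pass there, with log2 fold changes of 1.05 ± 0.30, -1.56 ± 0.40 and -1.19 ± 0.32. Gcg, the glucagon gene of islet alpha cells, and Ppp1r1b, the phosphatase inhibitor DARPP-32, gained it. Reg2 had a log2 fold change of 4.42 ± 0.33 and Cpe of -4.49 ± 0.77 at these matched times (edgeR adjusted p = 1.45e-22 and 3.59e-05).

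Several genes with no overlap and small unadjusted p did not pass in the 5 libraries. Among the higher ones, Pigr, the receptor that carries immunoglobulin A across epithelia, was 27.1, 28.2 and 6.18 CPM in Old and 2.49 and 5.95 CPM in Young (edgeR adjusted p = 0.138). Ide, the insulin-degrading enzyme, was 91.2, 74.5 and 69.5 CPM in Old and 33.2 and 43.4 CPM in Young (edgeR adjusted p = 0.142), and Young 4 h lay with Young at 36.0 CPM. Fgf21, a metabolic hormone that acinar cells also secrete, was 18.5, 14.9 and 28.6 CPM in Old and 6.64 and 5.95 CPM in Young (edgeR adjusted p = 0.169). Gpt, alanine aminotransferase, and Rdh11, a retinol dehydrogenase, had log2 fold changes of 1.46 ± 0.43 and 2.51 ± 0.69. Among the lower ones, Enpp2, the secreted enzyme autotaxin, was 12.1, 10.2 and 6.95 CPM in Old and 17.4 and 39.1 CPM in Young (edgeR adjusted p = 0.142). Phkb, a subunit of phosphorylase kinase, and Cavin2, a coat protein of caveolae, had log2 fold changes of -1.30 ± 0.34 and -1.22 ± 0.32. None of these genes passed when Young 4 h was included; Ide was at 1.28 ± 0.35, Fgf21 at 2.07 ± 0.47 and Enpp2 at -1.71 ± 0.42, and Pigr was too low to be tested.

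The gene lists put these genes beside the tissue's other functions. Over all genes tested in the 5 libraries 49.6% of fold changes were positive. Of the extracellular matrix genes, 20 of 21 tested members had negative fold changes, with a median of -0.44, but only Sparc passed. The fibrillar collagen Col1a1 stood at 36.5 and 38.3 CPM in Young and 27.1, 14.9 and 13.9 CPM in Old, and Col3a1 at 98.0 and 141 CPM in Young and 81.9, 79.2 and 42.5 CPM in Old. Neither passed; their groups did not overlap in the 5 libraries, as for 18.9% of all genes tested, and overlapped with Young 4 h, at 23.3 and 46.9 CPM. In the 6-library fit, 11 of 21 matrix genes were negative and the median was -0.04. Fibroblast and stellate cell markers summed to 270 and 400 CPM in Young and 234 to 313 CPM in Old, which overlap. In the separate libraries of 16 to 24 h, 18 of 19 matrix genes tested were negative, and none passed. Their median was -0.58 against 0.01 over all genes there, and Col3a1 was at -1.25 ± 0.42 (edgeR adjusted p = 0.999). The matrix list summed to 749 to 991 CPM in these Young libraries. In Old it summed to 242, 472 and 987 CPM at 16, 20 and 24 h, so Old 24 h lay within the Young range.

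All 6 adipocyte genes tested had negative fold changes, with a median of -0.92, and none passed. Their list summed to 364 and 167 CPM in Young 8 and 12 h and 165, 115 and 121 CPM in Old; Young 4 h held 369 CPM. Fabp4, the fatty acid carrier of adipocytes, was 39.0 and 15.3 CPM in Young and 13.5, 4.71 and 10.8 CPM in Old. Fasn and Scd1, enzymes of fatty acid synthesis and desaturation that fat tissue expresses strongly, had log2 fold changes of -0.88 ± 0.28 and -0.96 ± 0.31 and did not pass. The whole list of cholesterol and fatty acid synthesis was not one-sided, with 6 of 14 genes positive and a median of -0.09, and 7 of 12 positive in the 8 and 12 h libraries. In the 6-library fit, 4 of 5 adipocyte genes tested were negative, with a median of -0.97. The list of cholesterol and fatty acid synthesis had 4 of 14 genes positive in that fit, with a median of -0.73. Fasn and Scd1 were at -0.98 ± 0.35 and -1.28 ± 0.44 and did not pass. The part of adipose tissue in these values was not tested.

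Several lists covered protein synthesis and turnover. Of 36 cytosolic ribosomal protein genes tested 33 had positive fold changes, with a median of 0.28, and none passed. Rps2 was 215 and 161 CPM in Young and 280, 255 and 278 CPM in Old, and Rps6 was 149 and 147 CPM in Young and 207, 205 and 194 CPM in Old. The tRNA ligases had 7 of 16 positive (median -0.02), the translocon and secretory pathway 11 of 27 (-0.06) and the proteasome 8 of 14 (0.03). All 16 autophagy and lysosome genes had positive fold changes, with a median of 0.21, and none passed; in the 8 and 12 h libraries 13 of 15 were positive. Of the digestive enzymes, 20 of 29 were positive, the median was 0.13 and none passed. Sycn, syncollin of the zymogen granule membrane, was 6084 and 4067 CPM in Young and 8016, 10877 and 9241 CPM in Old (log2 fold change 0.87 ± 0.26, edgeR adjusted p = 0.447). Clps, the colipase cofactor, had a log2 fold change of 0.51 ± 0.25. Including Young 4 h, whose enzyme share was lowest, the medians were 0.51 for the enzymes, 0.44 for ribosomal proteins (34 of 36 positive) and 0.21 for autophagy and lysosome genes (13 of 16 positive). In that fit the proteasome had 0 of 14 positive (median -0.65), the tRNA ligases 11 of 16 (0.12) and the translocon and secretory pathway 16 of 27 (0.16). Sycn and Clps were at 1.25 ± 0.56 and 0.85 ± 0.53 and did not pass.

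Genes that acinar cells turn on in injury and metaplasia formed a further list. All 6 tested had positive fold changes, with a median of 0.41, and none passed. Nupr1, a stress-induced nuclear protein of acinar cells, was 921 and 350 CPM in Young and 1518, 960 and 580 CPM in Old, so the groups overlapped. Clu, clusterin, and Muc1, an apical mucin, had log2 fold changes of 0.35 ± 0.24 and 0.47 ± 0.27. Among chaperones and sensors of the unfolded protein response 19 of 25 were negative, with a median of -0.11, and none passed; its transcription factor Xbp1 was 146 and 134 CPM in Young and 209, 269 and 188 CPM in Old (0.66 ± 0.24, edgeR adjusted p = 0.721). In the 8 and 12 h libraries, with no Old 4 h, 3 of 5 injury genes tested were positive, with a median of 0.24, which was also the value of Nupr1. In the 6-library fit the injury median was 0.63 over 5 genes tested, and that of the unfolded protein response turned positive, at 0.19 with 17 of 25 positive. Nupr1, Clu, Muc1 and Xbp1 were at 0.93 ± 0.54, 0.63 ± 0.41, 0.74 ± 0.41 and 0.91 ± 0.37 in that fit, and none passed.

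Markers of T and natural killer cells were low in all 6 libraries. The T and natural killer cell list summed to 1.66 to 3.92 CPM, and none of its genes had enough counts to be tested. All 4 MHC class II genes had positive fold changes, with a median of 0.42, and none passed; Cd74, the invariant chain, was 19.9 and 28.9 CPM in Young and 41.3, 30.6 and 34.8 CPM in Old. The MHC class II list summed to 59.8 and 73.2 CPM in Young 8 and 12 h and 117, 83.9 and 78.8 CPM in Old 4, 8 and 12 h. Immunoglobulins summed to 45.7 and 11.9 CPM in these Young libraries and 89.0, 14.1 and 28.6 CPM in Old. Old 4 h, the library with the highest Reg2 here, thus held the most of both lists. Macrophage and myeloid markers summed to 83.9 and 119 CPM in Young and 91.0 to 126 CPM in Old, which overlap. In the 8 and 12 h libraries, with no Old 4 h, 2 of 4 MHC class II genes were positive, with a median of 0.05. Young 4 h held 23.3 CPM of MHC class II genes, and their median was 1.07 when it was included. The part of immune cells in the Reg differences was not tested.

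The other islet genes tested had positive fold changes. Gcg was 3.32 and 14.5 CPM in Young and 11.4, 32.2 and 38.6 CPM in Old (log2 fold change 1.62 ± 0.46, edgeR adjusted p = 0.317). Ins1 and Ins2, the insulin genes, had log2 fold changes of 0.87 ± 0.39 and 0.62 ± 0.30, and neither passed. Of 6 islet hormone and granule genes tested 5 were positive, with a median of 0.42. The 2 Young libraries were far apart in this list, at 85.5 and 246 CPM, against 150 to 285 CPM in Old. Including Young 4 h, 4 of 6 were positive, with a median of 1.09. Gcg, Ins1 and Ins2 were at 2.24 ± 0.71, 1.39 ± 0.64 and 1.12 ± 0.64 in that fit, and none passed.

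Core clock genes cannot be read without matched times. Of 14 tested in the 5 libraries 11 had negative fold changes, with a median of -0.37, and in the 8 and 12 h libraries alone 7 of 14 were positive, with a median of 0.03. In the 6 libraries, where the times match, 2 of 13 were positive, with a median of -0.21, and none passed. Nr1d2, the REV-ERB beta repressor, was 17.1 CPM in Old 4 h and 42.4 to 84.2 CPM in the other 4 libraries; its log2 fold change moved from -1.04 ± 0.29 to -0.70 without the 4 h libraries and passed in neither fit. Heat shock genes other than Hsph1 did not pass, and their list had a median of -0.11, or -0.56 with Young 4 h.

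**Figure D4:**
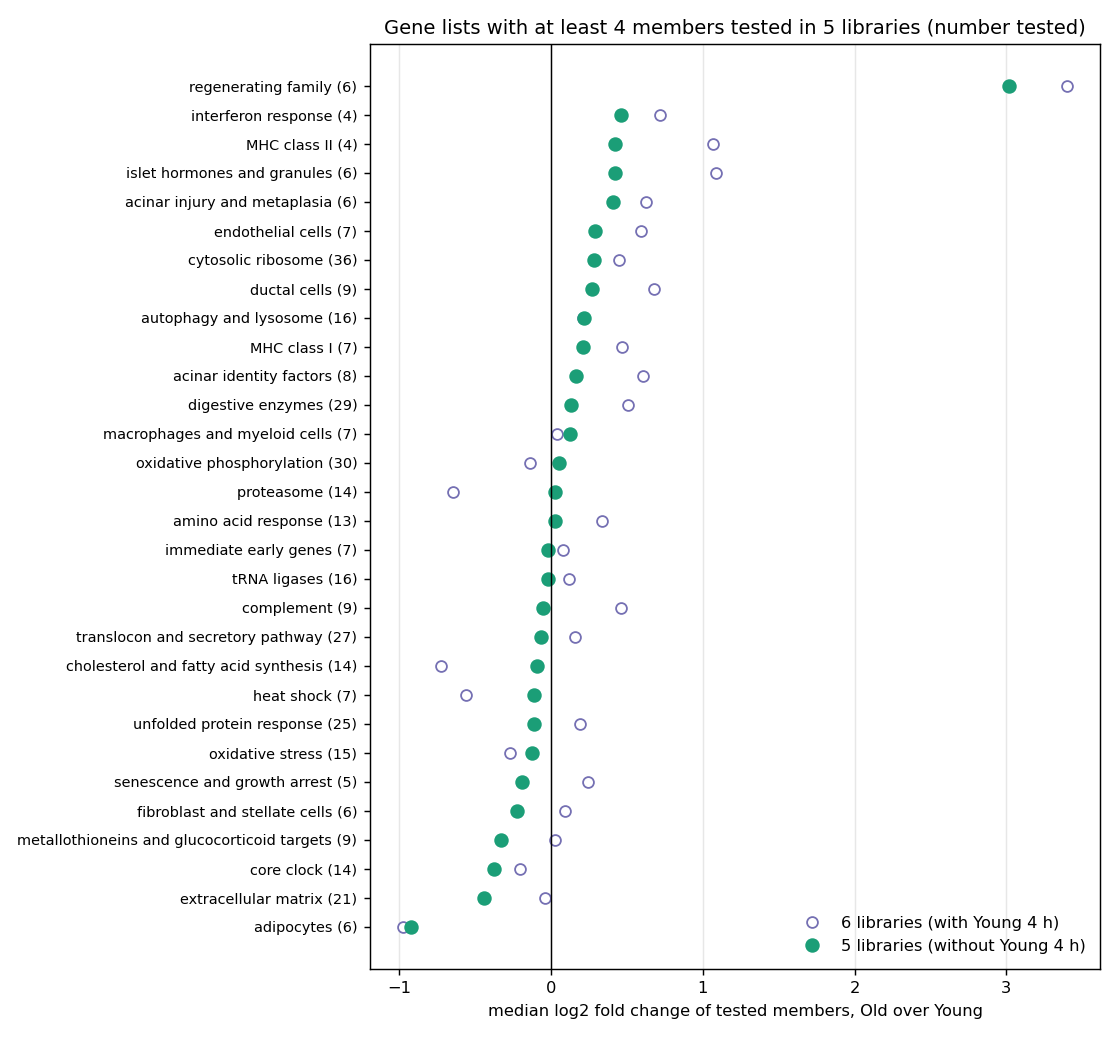
For each gene list with at least 4 members tested, the median log2 fold change of Old over Young is plotted for the 5 libraries (filled) and for the 6 with Young 4 h (open); numbers tested in the 5 libraries are in brackets. The Reg family stands at 3.02, with 2 of its 6 genes tested only through their counts in Old, extracellular matrix moves from -0.44 to -0.04 when Young 4 h is included, and adipocyte genes have the lowest median in the 5 libraries, at -0.92.

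The libraries of 16, 20 and 24 h offer the same age comparison in separate samples, 3 against 3, in which central neuron markers summed to at most 57.5 CPM. There 0 of 5689 genes passed by edgeR's quasi-likelihood test, and 0 by DESeq2 and by limma-voom, while 200 had an unadjusted p under 0.05 (3.52%). Of the 12 genes, 11 were tested there, none passed, and 10 had the direction seen at 4 to 12 h. The share of all genes with the same direction in both spans was not computed, so this count is a description. Among the 10, Snora73a was at 0.27 ± 0.32. Reg2 was 1133 and 4867 CPM in Old at 16 and 24 h, and 34.3 CPM in Old at 20 h, below the Young range of 49.5 to 110 CPM. Reg3a, Reg3b and Itih4 were low in the same Old 20 h library, at 0, 17.6 and 16.0 CPM. The log2 fold change of Reg2 was 4.65 ± 0.96 and that of Reg3b 3.45 ± 0.76, with edgeR adjusted p of 0.347 and 0.378. Old 24 h, the library with the highest Reg2, also held the most immune transcripts, with 401 CPM of MHC class II genes, 548 CPM of immunoglobulins and 42.8 CPM of T and natural killer cell genes. Old 16 h, with the next highest Reg2, held the fewest MHC class II transcripts of the later libraries, at 23.6 CPM. The part of immune cells in these values was not tested. In the following 3 genes Old was above Young in all later libraries too: 1810007D17Rik at 1.94 ± 0.41, Cobl at 1.21 ± 0.26 and Kcnma1 at 2.59 ± 0.48 (each edgeR adjusted p = 0.347). Kcnma1 was at most 4.85 CPM in these Young libraries and at least 13.7 CPM in these Old ones. It reached the count filter through Old only here too, so its direction was again fixed by the filter. Camk2b also did not overlap there, at 0.47 ± 0.21 (edgeR adjusted p = 0.999), among 9.7% of all genes tested with no overlap at these times. Cpe stood at 15.1 to 16.5 CPM in Young and 15.5, 4.79 and 2.57 CPM in Old, and Hsph1 overlapped.

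**Figure D5:**
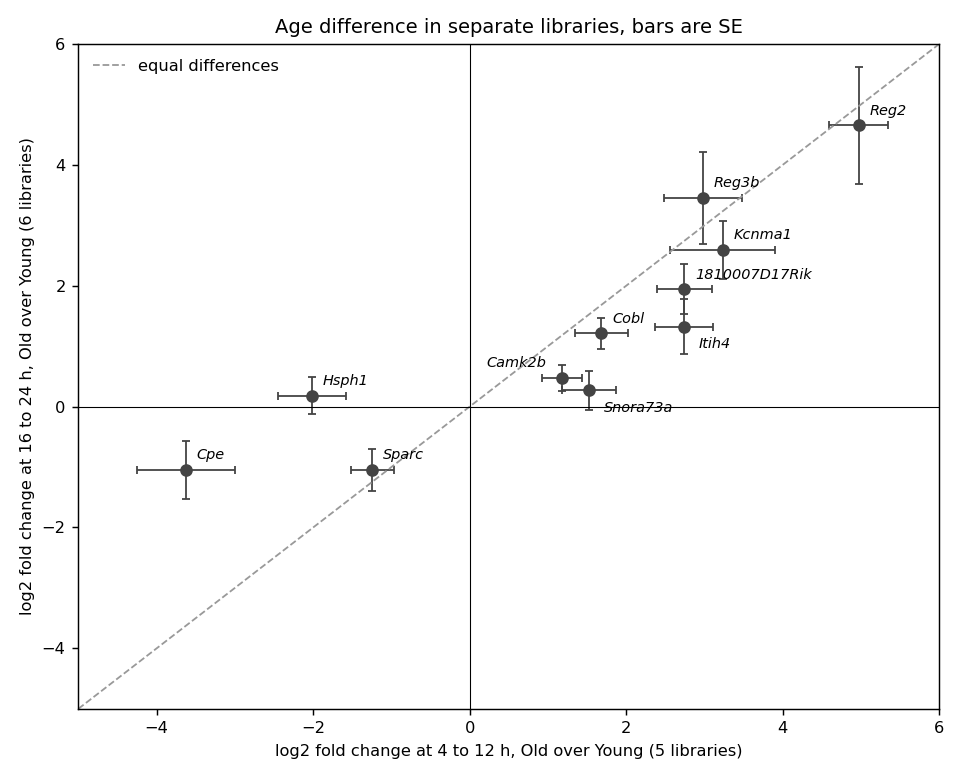
Log2 fold changes of Old over Young at 4 to 12 h (x axis, 5 libraries) and at 16 to 24 h (y axis, 6 other libraries) are plotted for the 11 genes tested at both times, with SE bars and a dashed line of equal differences. Reg2, Reg3b and Sparc lie near the line, Cpe at -3.63 and -1.05 lies off it, and Hsph1 has no negative value at 16 to 24 h.

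Whether the age difference itself differed between the 2 spans of time was tested with an interaction term over all genes. No gene passed with Young 4 h (0 of 7015, 325 or 4.63% at an unadjusted p under 0.05) or without it (0 of 7206, 224 or 3.11%), by edgeR's quasi-likelihood test, by DESeq2 or by limma-voom. The interaction without Young 4 h, early minus late difference, was 0.34 ± 1.10 for Reg2, -0.45 ± 1.11 for Reg3b and 0.81 ± 0.63 for 1810007D17Rik. It was -2.57 ± 0.85 for Cpe and -2.19 ± 0.65 for Hsph1, each with an edgeR adjusted p of 1.00. With Young 4 h it was 0.70 for Reg2 and -4.83 for Cpe (edgeR adjusted p = 0.948 and 0.917). With SEs of this size for the Reg genes, a difference between the spans was not detectable at this number of libraries unless it was large.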

How the data were processed

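Poly(A) RNA-seq of whole pancreas was analysed from the table of raw gene counts that the authors deposited, with 1 column for each of the 12 libraries. STAR, HTSeq and build GRCm38 are named in the submitters' processing notes, with versions not given in the sources used here. The deposited counts carry the name featureCounts, so which tool counted is unclear. Whether counting used strand is likewise not given. Old was compared with Young over 6 libraries and over 5 without Young 4 h, with edgeR 4.0.16 (quasi-likelihood test, TMM scaling, filterByExpr with a minimum count of 10) in R 4.3.3 and Benjamini-Hochberg adjustment over all genes tested; a gene passed at an adjusted p under 0.05. CPM divide counts by the library total, and 3 counts correspond to 1.03 CPM in Young 4 h and 2.14 to 2.55 CPM in the other 5 libraries of 4 to 12 h. SEs come from the fold change and its F statistic. The scripts were tested on simulated counts. Positions come from GENCODE and upstream sequences from RefSeq.

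The compared libraries and the 44 gene lists were chosen with earlier results of these data known. Genes were named by rule: up to 15 in each direction by smallest p in the 5-library test, with a mean of at least 10 counts and no overlap between ages, then up to 4 members of each list described, all Reg genes and up to 10 in each direction from the 6-library test. The rule passed over predicted names, so 1810007D17Rik was named after its values were seen. The list of mitochondrial genome genes had no member in the table. Counts were compared over 15 pairs of libraries; chi-square per gene was lowest for Old 4 h with Old 8 h, at 2.90, which is above counting noise. Alternatives were DESeq2 1.42.0, limma-voom 3.58.1, another scaling, other filters, a block for collection time, a pooled spread and leaving out each library. The comparison at 16 to 24 h was added after seeing the data.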

Additional observations from a re-analysis of the deposited data

How the results depend on the processing

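Recomputed fold changes were tallied for 48 genes, a subset of those named by the rule. Among these 1338 fold changes, 1197 kept direction and side of the threshold, 78 lost the call, 55 gained it and 8 reversed. The fit to the 8 and 12 h libraries is also the 5-library fit without Old 4 h and is counted under both. Outside the 48, the MHC class II genes H2-Eb1 and H2-Aa reversed in 5 and 4 of the recomputed 5-library fits. Leaving out 1 library at a time moved the count of 12 genes of the 5-library test to between 7 and 73 (73 and 29 with 1 Young library left, assumed to vary like the Old ones) and the 3 of the 6-library test to between 0 and 12. It gave between 0 and 14 genes at 16 to 24 h (14 without Old 24 h) and 0 in both interactions. With no filter on low counts the tests called 19 genes (5 libraries), 976 (6 libraries, 961 of them lower in Old), 24 (16 to 24 h) and 269 and 3 (interaction with and without Young 4 h). A minimum count of 20 left 4 genes in the 5 libraries, where fewer genes were tested. DESeq2 called 4 genes in the 5 libraries and 7 in the 6, and limma-voom called 5 in the 5. A spread pooled over the 16 to 24 h libraries gave 2 genes in the 5 and 0 in the 6 libraries; the 2 were Cpe and 1810007D17Rik. The cause of these moves was not tested. Among the 48 genes, reversals were small or rested on Young 4 h. In the 6 libraries the log2 fold change of Kcnma1 was 0.19 by limma-voom and 0.83 with the block, and leaving out 1 library at a time took it from -0.89 to 3.23 (without Young 4 h). Fabp4 was 0.22 by limma-voom and ranged from -1.50 to 0.40 (without Young 8 h), and Col3a1 ranged from -0.80 to 0.064 (without Young 12 h). In the 5 libraries Reg1 ranged from -0.045 (without Old 8 h) to 0.24 and was -0.0022 in the 8 and 12 h libraries with the block.

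The libraries of an age are numbered in accession order only, so collection time was the one link between ages. Deviations from the age mean at the same time correlated at 0.06, -0.02 and 0.14 for 4, 8 and 12 h in the 6 libraries. These values do not decide whether time pairs the libraries, because Young 4 h, with its brain transcripts, enters every Young deviation. Without Young 4 h they were -0.02 at 8 h and 0.14 at 12 h. Those values do not decide it either, because the deviations of 2 Young libraries from their mean are mirror images. A replicate block for collection time called 11 genes in the 5 libraries, 4 in the 6, 11 in the 8 and 12 h libraries, 1 at 16 to 24 h and 0 in each interaction. At these totals, genes of a few CPM had too few counts to be tested.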
